A study of Mus musculus with 34 samples.

Results

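The change of the transcriptome between the zygote and the late 2-cell stage was measured in mouse embryos that had been injected as zygotes with mRNA for a mutant of the checkpoint kinase CHK1, R442Q. The embryos were taken by stage and injected mRNA as the labels give them, which left 6 R442Q zygotes and 5 R442Q late 2-cell embryos, 11 of the 34 single-embryo libraries of the series. Neither of these groups had been treated with a CHK1 inhibitor. They were compared with each other, gene by gene, and the change was set beside that of 5 zygotes and 4 late 2-cell embryos injected with wild-type (WT) CHK1 mRNA, also without inhibitor. All 4 groups therefore carried injected CHK1 mRNA, and uninjected embryos were not analysed here. The other 14 libraries of the series are blastocysts grown in the inhibitor and were not used here. The labels give no mouse strain, no time of collection in hours and no source of the sperm or eggs, and they do not say whether embryos of a group shared a mother, so a p-value measures the spread between these single embryos. The zona pellucida had been removed before lysis. The injected mRNA, R442Q or WT, is called the genotype, as in the labels.

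At fertilisation the mouse genome is almost silent, and the embryo lives on RNA and protein that the oocyte stored. Over the following day this maternal RNA is degraded and transcription of the embryo's own genome starts, first in a minor wave in the zygote and then in a major wave in the 2-cell embryo that includes short-lived gene families such as Zscan4. CHK1, encoded by Chek1, is the kinase that relays a signal from stalled or damaged DNA to the machinery of mitotic entry and holds cells before mitosis. The study's title frames the question as what a disturbed DNA damage checkpoint does to preimplantation embryos.

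Total counts ranged from 7183632 to 11296522 in R442Q zygotes and from 5727956 to 8916343 in R442Q late 2-cell embryos. Genes with at least 1 count numbered 17710 to 19931 in zygotes and 14987 to 20432 in late 2-cell embryos. Within-group correlations of log2 CPM (CPM being the count scaled to the size of the library) were 0.951 to 0.974 among R442Q zygotes and 0.790 to 0.879 among R442Q late 2-cell embryos. R442Q late 2-cell replicates 1 and 4 had the fewest genes, 14987 and 15749. The 2 stages were deposited as separate tables and the labels give no batch, so an effect of the table cannot be told apart from that of the stage. The deposited FPKM summed to 814376 to 976830 in R442Q late 2-cell embryos and to 677067 to 686416 in R442Q zygotes. Less RNA of a gene and more RNA of the other genes cannot be told apart in scaled counts. Nor can the number of cells of an embryo and the RNA in each, so every change is relative to the rest of the library.

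Chek1, the injected gene (ENSMUSG00000032113.16, chr9:36708482-36727065, - strand, GRCm38), fell between the stages. It ranged from 6126 to 7972 CPM (median 7413, n = 6) in R442Q zygotes and stood at 266, 651, 632, 299 and 398 CPM in R442Q late 2-cell replicates 1 to 5. The highest late 2-cell embryo lay far below the lowest zygote, and replicates 1 and 4 were the lowest. The fitted log2 change was -4.01 ± 0.27 (SE; edgeR adjusted p 1.4e-11), a fall of 16.1-fold, and an exact two-sided permutation test over the 11 embryos gave p = 0.002165, the smallest that 462 splits allow. WT embryos changed by -3.73. Gene-level counts pool the injected Chek1 RNA with the embryo's own and the mutant with the WT sequence, so they do not check which mRNA an embryo received.

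Most of the measured transcriptome moved between the stages. Of 16199 genes tested in edgeR, 10547 (65.1%) passed a Benjamini-Hochberg adjusted p of 0.05. Of these, 5722 (35.3%) rose and 4825 (29.8%) fell, and these shares are the background for the gene lists. A log2 change of at least 1 was reached by 5426 of the rises (33.5%) and 4384 of the falls (27.1%). In 7376 genes (45.5%) the 6 zygotes and 5 late 2-cell embryos did not overlap, 3511 (21.7%) with all late 2-cell embryos higher and 3865 (23.9%) with all of them lower. The median log2 change over all tested genes was 0.22, and it was 0.34 with median-of-ratios size factors, 0.42 with library totals alone and 0.15 with upper quartile factors. In WT embryos 5870 genes (36.2%) rose and 4050 (25%) fell, with a median of 0.34.

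The genes that had changed in WT embryos were then used to place each R442Q embryo, since the choice of those genes involved no R442Q embryo. A fit of the WT embryos alone gave 4581 genes that were higher and 4098 that were lower at the late 2-cell stage by a log2 of at least 1. In R442Q zygotes the WT-higher genes held 5.47% to 6.46% of all counts (median 5.76%, n = 6). In R442Q late 2-cell replicates 1 to 5 they held 42.9%, 46.4%, 42.3%, 43.5% and 49.7%. The WT-lower genes held 46.04% to 51.4% (median 47.9%) in R442Q zygotes and 14.1%, 12.99%, 13.3%, 15.2% and 10.9% in R442Q late 2-cell embryos. Each R442Q late 2-cell embryo lay beyond every R442Q zygote on both measures, and none was intermediate. In WT embryos, which had chosen the genes, the same shares were 5.02% to 5.89% and 33.6% to 45.2% for the WT-higher genes, and 51.5% to 54.8% and 11.1% to 14.5% for the WT-lower genes.

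**Figure D1:**
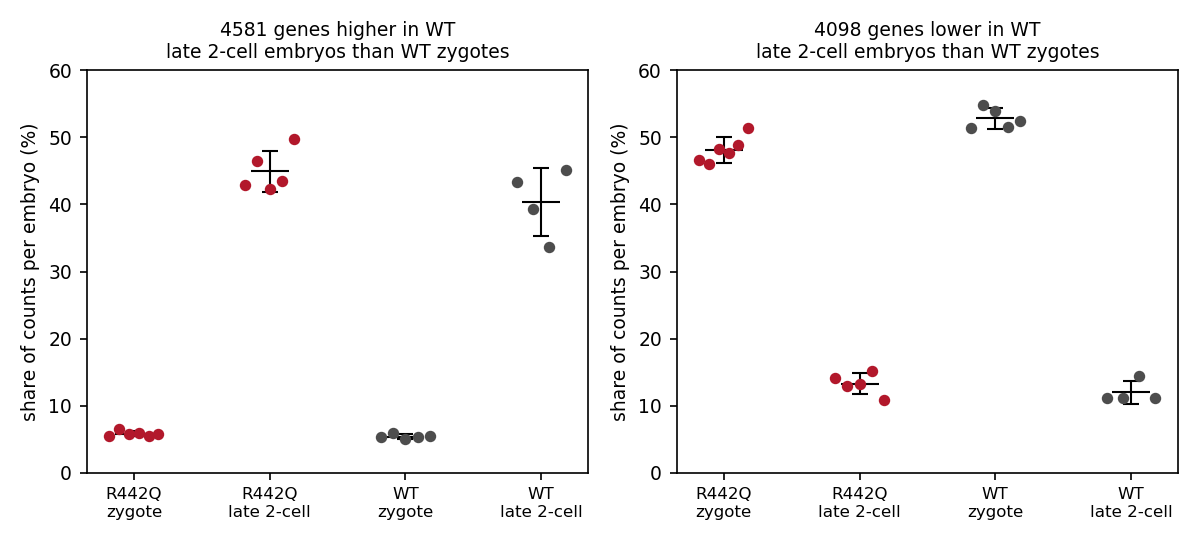
Share of each embryo's counts (%, 1 point per embryo, bar and whiskers are mean and SD) in genes that were higher (left) or lower (right) at the late 2-cell stage in WT embryos alone, for R442Q (red) and WT (grey) embryos. The 5 R442Q late 2-cell embryos sit between 42.3% and 49.7% on the left and between 10.9% and 15.2% on the right, apart from all R442Q zygotes.

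Gene by gene the R442Q change followed the same set of genes. Of the 4581 WT-higher genes, 4081 could be tested in a fit of R442Q embryos alone, and 3299 of them (80.8%) rose there while 13 fell. Of the 4098 WT-lower genes, 3995 could be tested, and 3044 (76.2%) fell while 7 rose. In that fit of R442Q embryos alone 33.4% of 13501 tested genes rose and 31% fell. For WT-called genes with a log2 change of at least 2 the shares were 87.0% of 2999 and 81.8% of 2400 tested genes. Genes too low in R442Q embryos to be tested are left out of these shares. Of all WT-higher and WT-lower genes, tested or not, 72% and 74.3% passed in the same direction. With a log2 change of at least 2 these were 75.1% and 78.5%. Across the 12855 genes tested in both fits, which share no embryo, the log2 changes had a Pearson r of 0.879 and a Spearman rho of 0.884. Genes are not independent replicates, and both changes share the tables of the 2 stages. Of the 6909 genes past the threshold in both fits, 6840 (99.0%) changed in the same direction.

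The gene families of the 2-cell stage rose in R442Q embryos. Zscan4 genes, which encode zinc finger proteins that act at telomeres, and Tdpoz, Usp17l, Tcstv and Pramef genes make up most of this list. Of 35 tested genes of this list, 28 rose (80%, background 35.3%), 2 fell (5.71%, background 29.8%) and 5 did not pass the threshold, and the median log2 change was 3.48, against 0.22 over all genes. In WT embryos 28 rose and 3 fell, with a median of 5.07. Per embryo the median level of the list was a log2 CPM of 2.34 to 4.58 in R442Q zygotes and 6.36, 8.41, 7.25, 7.94 and 6.60 in R442Q late 2-cell replicates 1 to 5. WT zygotes stood at 0.02 to 1.37 and WT late 2-cell embryos at 3.71 to 7.59, so that on this median every R442Q zygote lay above every WT zygote. On the share of counts the zygotes overlapped, with 0.142% to 0.194% in R442Q and 0.145% to 0.177% in WT zygotes. Duxf3 and AW822073, genes of the Dux kind that open this programme, were the 2 members that fell.

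Zscan4d shows the spread within the stage. It ranged from 10.6 to 69.9 CPM (median 19.9, n = 6) in R442Q zygotes and stood at 70.5, 141, 442.2, 284 and 93.6 CPM in R442Q late 2-cell embryos. The highest zygote and the lowest late 2-cell embryo nearly met, and late 2-cell replicate 3 was the highest and replicate 1 the lowest of its group. The log2 change was 2.83 ± 0.60 (SE; edgeR adjusted p 0.00026). Zscan4c ranged from 4.39 to 42.3 CPM (median 5.85, n = 6) and stood at 137, 613, 296, 402 and 122 CPM, with a log2 change of 4.47 ± 0.73 (SE; edgeR adjusted p 1.2e-05). Of the 50-base stretches of Zscan4d and Zscan4c, 49.6% and 85.5% occur in other annotated genes, so the counts of single copies are uncertain. The stretches before the starts of these copies were alike too, by the measure given below them, and are shown because these genes rose together. RefSeq (GRCm38.p6) gives, for the 250 bases before each start, with searched motifs in capitals:
Zscan4d (chr7:11166149-11166398, - strand): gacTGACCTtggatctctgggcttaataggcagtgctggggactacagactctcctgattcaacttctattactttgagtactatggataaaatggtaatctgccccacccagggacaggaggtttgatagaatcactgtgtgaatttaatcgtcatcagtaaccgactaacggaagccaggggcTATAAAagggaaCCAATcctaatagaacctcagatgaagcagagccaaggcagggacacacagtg
Zscan4c (chr7:11005495-11005744, + strand): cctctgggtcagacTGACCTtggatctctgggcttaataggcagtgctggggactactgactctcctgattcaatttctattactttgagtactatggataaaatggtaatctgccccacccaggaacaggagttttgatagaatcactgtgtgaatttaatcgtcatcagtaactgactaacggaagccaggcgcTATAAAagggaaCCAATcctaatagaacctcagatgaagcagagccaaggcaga
Shifted by 11 bases against each other, the 2 stretches had the same base at 232 of 239 positions (97.1%). Both hold TATAAA, the TATA box, 65 and 54 bases before the annotated start, then CCAAT, the motif bound by NFY, 53 and 42 bases before it, and TGACCT, the reverse complement of AGGTCA, a nuclear receptor motif. Over all 32851 mouse promoter windows in that table (250 bases before to 50 after a start, both strands searched), TATAAA occurred in 13.6%, CCAAT in 37.4% and AGGTCA in 16.3%. Over the windows of tested genes, of which 11353 of 16199 had one, the shares were 8.27%, 38.6% and 13.4%. A match is only a run of letters. Windows were at hand for 18 of the 35 tested list members, whose families share sequence, and of these 19 windows 84.2% hold CCAAT, 36.8% TATAAA and 21.1% AGGTCA.

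Tdpoz1, a member of a BTB and TRAF domain family, was nearly absent from zygotes. It ranged from 0.289 to 2.25 CPM (median 0.434, n = 6) and stood at 462, 393, 433, 659.8 and 417 CPM in late 2-cell embryos. Zygote replicate 2 was the highest zygote and late 2-cell replicate 4 the highest late 2-cell embryo, and the log2 change was 9.35 ± 0.47 (SE; edgeR adjusted p 2.6e-13). Of its 50-base stretches 44.4% occur in other genes. Zfp352, a zinc finger gene of the 2-cell stage, ranged from 4.53 to 35.7 CPM (median 18.7, n = 6) and stood at 371, 592, 552, 438 and 429 CPM, a log2 change of 4.58 ± 0.57 (SE; edgeR adjusted p 2.6e-07). AW822073 ranged from 10.5 to 30.1 CPM (median 17.6, n = 6) in zygotes and was at or near 0 in all late 2-cell embryos, with a log2 change of -4.96 ± 0.93 (SE; edgeR adjusted p 6.3e-05), and 52.1% of its stretches are found elsewhere, most of them in Duxf3.

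Factors of genome activation moved in both directions. Of 25 tested genes of this list, 12 rose (48%, background 35.3%), 9 fell (36%, background 29.8%) and 4 did not pass the threshold, with a median of 0.82 against 0.22 over all genes. Within the Obox homeobox family, whose proteins bind GGATTA-like sites, Obox3 and Obox6 rose while Obox1, Obox2 and Obox5 fell. Obox6 ranged from 1.52 to 7.203 CPM (median 2.97, n = 6) in zygotes and stood at 1061, 461, 375, 688 and 755 CPM in late 2-cell embryos. Every late 2-cell embryo lay far above every zygote, replicate 1 highest, and the log2 change was 7.64 ± 0.43 (SE; edgeR adjusted p 1.1e-12). Obox1 went from 1069 to 1338 CPM (median 1211, n = 6) to 57.4, 68.5, 41.98, 67.1 and 36.4 CPM. The groups did not overlap, and the log2 change was -4.47 ± 0.22 (SE; edgeR adjusted p 2.0e-13). Obox1 lies among Obox copies that overlap on both strands, and 57.4% of its stretches occur in other genes. Nr5a2, an orphan nuclear receptor, rose by 2.62 (edgeR adjusted p 2.4e-08), Obox3 rose by 6.18 (adjusted p 1.1e-11) and Klf17, a maternal Krüppel-like factor, fell by 1.80 on the log2 scale (adjusted p 4.6e-08).

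**Figure D2:**
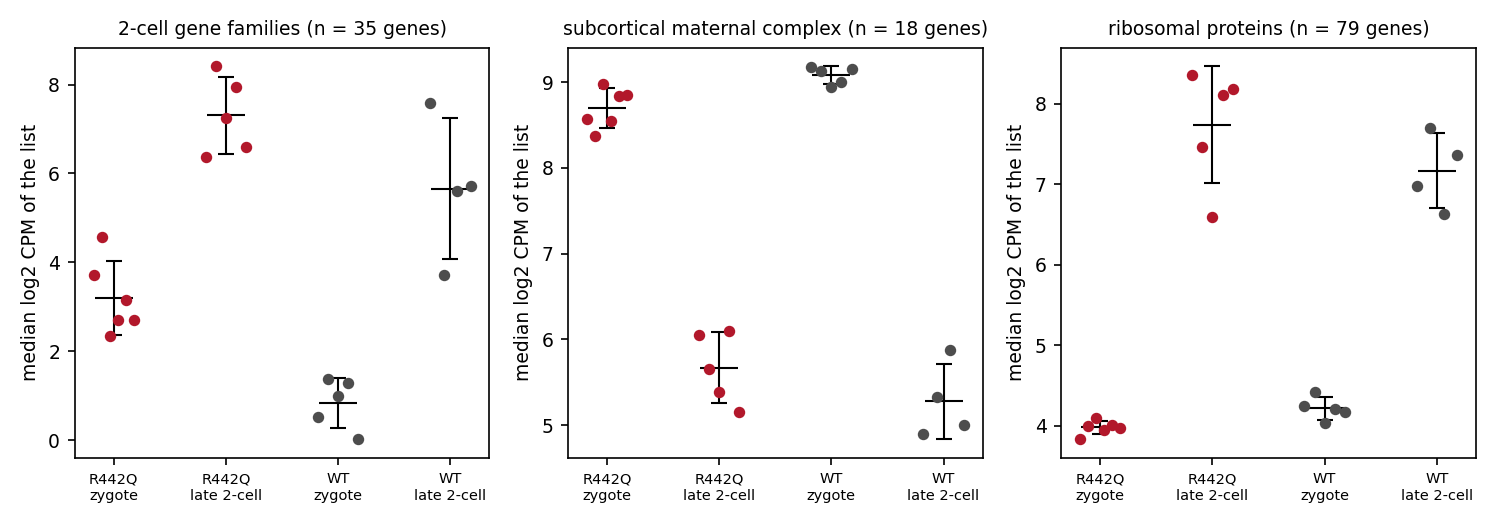
Median log2 CPM over the tested members of 3 lists in each embryo (1 point per embryo, bar and whiskers are mean and SD), for R442Q (red) and WT (grey) groups. R442Q late 2-cell embryos lie above R442Q zygotes for the 2-cell gene families (6.36 to 8.41 against 2.34 to 4.58) and ribosomal proteins, and below them for the subcortical maternal complex.

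The maternal programme fell, and most uniformly so in the subcortical maternal complex, an assembly of oocyte proteins beneath the egg's membrane that the first cleavages need. The list holds its core and the oocyte NLRP genes. Of 18 tested genes of this list, 0 rose (0%, background 35.3%), 17 fell (94.4%, background 29.8%) and 1 did not pass the threshold, with a median of -2.43. Nlrp4c was the member that did not pass. The median log2 CPM of the list was 8.37 to 8.98 in R442Q zygotes and 6.05, 5.66, 5.39, 6.10 and 5.15 in R442Q late 2-cell replicates 1 to 5, which left 0.154% to 0.309% of counts in these 18 genes, against 2.58% to 3.06% in R442Q zygotes. In WT embryos 0 rose and 17 fell, with a median of -2.99.

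Zbed3, which encodes a zinc finger member of the complex, was the most abundant of the members described here. It ranged from 17865 to 24942 CPM (median 22674, n = 6) in zygotes and stood at 840.03, 645, 774, 1241 and 522 CPM in late 2-cell embryos. All late 2-cell embryos lay on one side of all zygotes, and the log2 change was -4.80 ± 0.24 (SE; edgeR adjusted p 2.1e-13). Ooep, a KH domain protein of the core, ranged from 823 to 1415 CPM (median 1078, n = 6) and stood at 197, 121, 233, 199 and 95.8 CPM. It fell by 6.51-fold, with a log2 change of -2.70 ± 0.23 (SE; edgeR adjusted p 7.9e-10), while it fell further in WT embryos, from 1907 ± 353 CPM as zygotes (SD, n = 5) to 35.7 ± 8.88 CPM at the late 2-cell stage (SD, n = 4). The difference between the 2 changes was 3.04 ± 0.33 (SE; edgeR adjusted p 7.2e-06) and passed in all 12 other settings and with any 1 embryo left out. Nlrp5, the NLR protein that the complex is known by, ranged from 311 to 791 CPM (median 539.7, n = 6) and stood at 156, 155, 129.7, 169.5 and 150.1 CPM, a log2 change of -1.87 ± 0.23 (SE; edgeR adjusted p 2.0e-07) against -2.93 in WT embryos.
The difference of Nlrp5 was 1.06 ± 0.33 (SE; edgeR adjusted p 0.04), and it lost its call without R442Q late 2-cell replicates 1 and 4 (edgeR adjusted p 0.055), and without WT zygote replicate 1, 3 or 5 or WT late 2-cell replicate 2 or 4.
The 250 bases before the starts of Ooep and Nlrp5 are shown as those of the core genes described here (RefSeq, GRCm38.p6, searched motifs in capitals):
Ooep (chr9:78378589-78378838, - strand): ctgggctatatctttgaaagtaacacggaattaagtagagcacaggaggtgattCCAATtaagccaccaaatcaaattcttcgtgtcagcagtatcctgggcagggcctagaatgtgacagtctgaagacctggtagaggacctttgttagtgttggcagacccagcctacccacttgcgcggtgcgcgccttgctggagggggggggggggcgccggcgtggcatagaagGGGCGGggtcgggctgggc
Nlrp5 (chr7:23403852-23404101, + strand): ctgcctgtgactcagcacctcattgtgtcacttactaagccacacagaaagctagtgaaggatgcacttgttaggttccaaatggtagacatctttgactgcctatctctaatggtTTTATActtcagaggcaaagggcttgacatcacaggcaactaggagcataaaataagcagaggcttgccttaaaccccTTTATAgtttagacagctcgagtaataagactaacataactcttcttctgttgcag
The Ooep stretch holds CCAAT and GGGCGG, the box bound by SP1, 196 and 19 bases before the start, and that of Nlrp5 holds TATAAA on the reverse strand 134 and 56 bases before it. Of the 21 windows of 15 list members, out of 18 tested, 14 (66.7%) hold CCAAT and 5 (23.8%) hold GGGCGG, against 38.6% and 57.4% of the windows of all tested genes and 37.4% and 35.7% of all windows. Windows of 1 gene overlap, and NLRP copies share sequence.

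Tested as a difference between the genotypes, 7 of the 18 genes of the complex had fallen less in R442Q than in WT embryos (38.9%, against 3.07% of all genes higher) and 0 had fallen more. They were Nlrp5, Ooep, Nlrp4b, Nlrp9b, Nlrp9c, Nlrp14 and Npm2. The count depended on single embryos. It was 2 without R442Q late 2-cell replicates 1 and 4, those with the fewest genes. It was 2 without WT late 2-cell replicate 4, 3 without WT late 2-cell replicate 2 or WT zygote replicate 1, 3 or 5, and 4 without WT zygote replicate 4.

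Oocyte growth factors and zona genes were less uniform. Of 30 tested genes of this list, 5 rose (16.7%, background 35.3%), 19 fell (63.3%, background 29.8%) and 6 did not pass the threshold, with a median of -1.62, against -2.70 in WT embryos. Bmp15, a growth factor secreted by the oocyte, ranged from 3113 to 4172 CPM (median 3235, n = 6) in zygotes and stood at 439.8, 310.1, 253, 398 and 163 CPM in late 2-cell embryos. No late 2-cell embryo overlapped the zygotes, and the log2 change was -3.44 ± 0.29 (SE; edgeR adjusted p 5.5e-10). Gdf9, its partner ligand, fell (-1.97, adjusted p 8.1e-05), as did Nobox, a homeobox factor of oocyte growth (-3.72, adjusted p 3.1e-12). Zp3, a zona pellucida glycoprotein, had its late 2-cell embryos at 138, 36.1, 42.3, 62.7 and 153 CPM over a zygote range of 27.95 to 61.2 CPM (median 47.1, n = 6). Its groups overlapped, and its rise (0.89, adjusted p 0.025) lost its call without zygote replicate 1 or late 2-cell replicate 1 or 5, and reversed to -0.029 with each library's trend on transcript length and GC content removed. Sohlh1, an early oocyte transcription factor, rose from 5 counts in all 6 zygotes to 7.09, 13.8, 7.96, 18.1 and 11.8 CPM.

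Genes of maternal mRNA decay fell more often than they rose. Of 44 tested genes of this list, 10 rose (22.7%, background 35.3%), 25 fell (56.8%, background 29.8%) and 9 did not pass the threshold, with a median of -0.79. Btg4, which brings the CCR4-NOT deadenylase to maternal mRNA, ranged from 3604 to 4139 CPM (median 3833, n = 6) in zygotes and stood at 553, 464, 198, 617 and 168 CPM in late 2-cell embryos. Replicates 3 and 5 were the lowest, the groups did not overlap, and the log2 change was -3.26 ± 0.29 (SE; edgeR adjusted p 1.1e-09). Among subunits of that deadenylase, Cnot6l fell (-1.45, adjusted p 3.6e-06) and Cnot3 fell (-3.91, adjusted p 7.6e-12). Genes of poly(A)-binding proteins moved in opposite directions: the oocyte form Pabpc1l fell from 97.01 to 207 CPM (median 182, n = 6) to 0.177, 4.09, 2.895, 6.24 and 2.15 CPM and the somatic form Pabpc1 rose from 2.22 to 8.96 CPM (median 4.77, n = 6) to 154, 119, 191, 94.4 and 219.9 CPM. Their log2 changes were -5.77 ± 0.46 (SE; edgeR adjusted p 2.1e-10) and 4.86 ± 0.35 (SE; edgeR adjusted p 3.8e-11). Zfp36l2, a binder of AU-rich elements, overlapped between the stages (-0.78, adjusted p 0.31).

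Checkpoint genes, the setting of the injected kinase, moved in both directions. Of 25 tested genes of this list, 6 rose (24%, background 35.3%), 13 fell (52%, background 29.8%) and 6 did not pass the threshold, with a median of -0.92. With the length and GC trend removed 5 rose and 7 fell, so the excess of falls depended on that trend. Chek2, the kinase that acts beside CHK1 below ATM, ranged from 3.38 to 6.595 CPM (median 4.07, n = 6) in zygotes and stood at 115, 84.003, 95.5, 73.9 and 118 CPM in late 2-cell embryos. There was no overlap between the stages, and the log2 change was 4.41 ± 0.29 (SE; edgeR adjusted p 1.2e-11). Atr, which encodes the kinase that activates CHK1, was low and uneven at 0, 13.5, 23.2, 5.25 and 0.323 CPM in late 2-cell embryos, over a zygote range of 4.08 to 10.6 CPM (median 7.02, n = 6). Replicates 2 and 3 were high and replicates 1 and 5 at or near 0, and the change was 0.26 ± 0.74 (SE; edgeR adjusted p 0.77).

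The targets of the checkpoint, the genes of mitotic entry, moved in both directions. Of 37 tested genes of this list, 11 rose (29.7%, background 35.3%), 17 fell (45.9%, background 29.8%) and 9 did not pass the threshold, with a median of -0.47, which turned to 0.23 on log2(FPKM + 1), where 13 rose and 13 fell. With the length and GC trend removed 11 rose and 12 fell. Cdk1, the mitotic kinase, ranged from 73.3 to 130.00 CPM (median 114, n = 6) in zygotes and stood at 1468, 931, 416, 1272 and 658 CPM in late 2-cell embryos. All late 2-cell embryos lay above all zygotes, replicate 3 lowest, and the log2 change was 3.12 ± 0.27 (SE; edgeR adjusted p 6.7e-10). Ccne1, cyclin E of the entry into S phase, went from 13.5 to 27.01 CPM (median 18.4, n = 6) to 622, 487, 269, 374 and 693 CPM, a log2 change of 4.66 ± 0.26 (SE; edgeR adjusted p 7.7e-13), and rose less than in WT embryos (6.18), by -1.51 ± 0.34 (SE; edgeR adjusted p 0.007). Without the length and GC trend that difference was -0.99 with an edgeR adjusted p of 0.14. The maternal securin Pttg1 fell (-2.15, adjusted p 1.3e-10). Cdc25a, the phosphatase that CHK1 marks for destruction, ranged from 20.9 to 39.6 CPM (median 33.7, n = 6) and stood at 9.92, 14.7, 26.3, 7.39 and 28.4 CPM, and Wee1, a kinase that restrains CDK1, from 6.12 to 12.6 CPM (median 7.41, n = 6) and at 10.1, 3.92, 28.5, 6.73 and 5.16 CPM. Both overlapped between the stages. The fall of Cdc25a (-0.85, adjusted p 0.023) lost its call without late 2-cell replicate 1, 2 or 4, and Wee1 did not pass (0.39, adjusted p 0.51).

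Targets of p53, the transcription factor that DNA damage signalling activates, rose more often than they fell. Of 22 tested genes of this list, 12 rose (54.5%, background 35.3%), 5 fell (22.7%, background 29.8%) and 5 did not pass the threshold, with a median of 2.45, which was 1.39 on log2(FPKM + 1), and in WT embryos 12 rose and 3 fell, with a median of 1.65. Gene by gene the difference from WT embryos passed for 0 of the 22 as higher (background 3.07%) and for 2 as lower (9.09%, background 7.05%), with a median difference of -0.50 against -0.16 over all genes. Cdkn1a, the CDK inhibitor p21, ranged from 1.69 to 13.8 CPM (median 5.28, n = 6) in zygotes and stood at 117, 108, 158, 110.1 and 151 CPM in late 2-cell embryos. The groups did not overlap, and the log2 change was 4.24 ± 0.46 (SE; edgeR adjusted p 2.9e-08), with 5.10 in WT embryos. Tigar, a fructose bisphosphatase that restrains glycolysis, rose (3.33, adjusted p 4.7e-11), while Ddb2, a sensor of ultraviolet damage, and Trp53 itself fell (-2.002, adjusted p 5.5e-07, and -0.82, adjusted p 0.0038). Mdm2, the ligase that degrades p53, ranged from 166 to 247 CPM (median 209.5, n = 6) and stood at 93.4, 91.3, 75.3, 63.7 and 105 CPM. It fell in R442Q embryos by -1.27 ± 0.17 (SE; edgeR adjusted p 7.2e-07), where WT embryos held 154 ± 14.1 CPM as zygotes (SD, n = 5) and 187 ± 18.7 CPM at the late 2-cell stage (SD, n = 4) with a log2 change of 0.28. The changes differed by -1.55 ± 0.25 (SE; edgeR adjusted p 0.00047), past the threshold in all 12 other settings, with -1.06 and an adjusted p of 0.047 once the length and GC trend was removed.

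**Figure D3:**
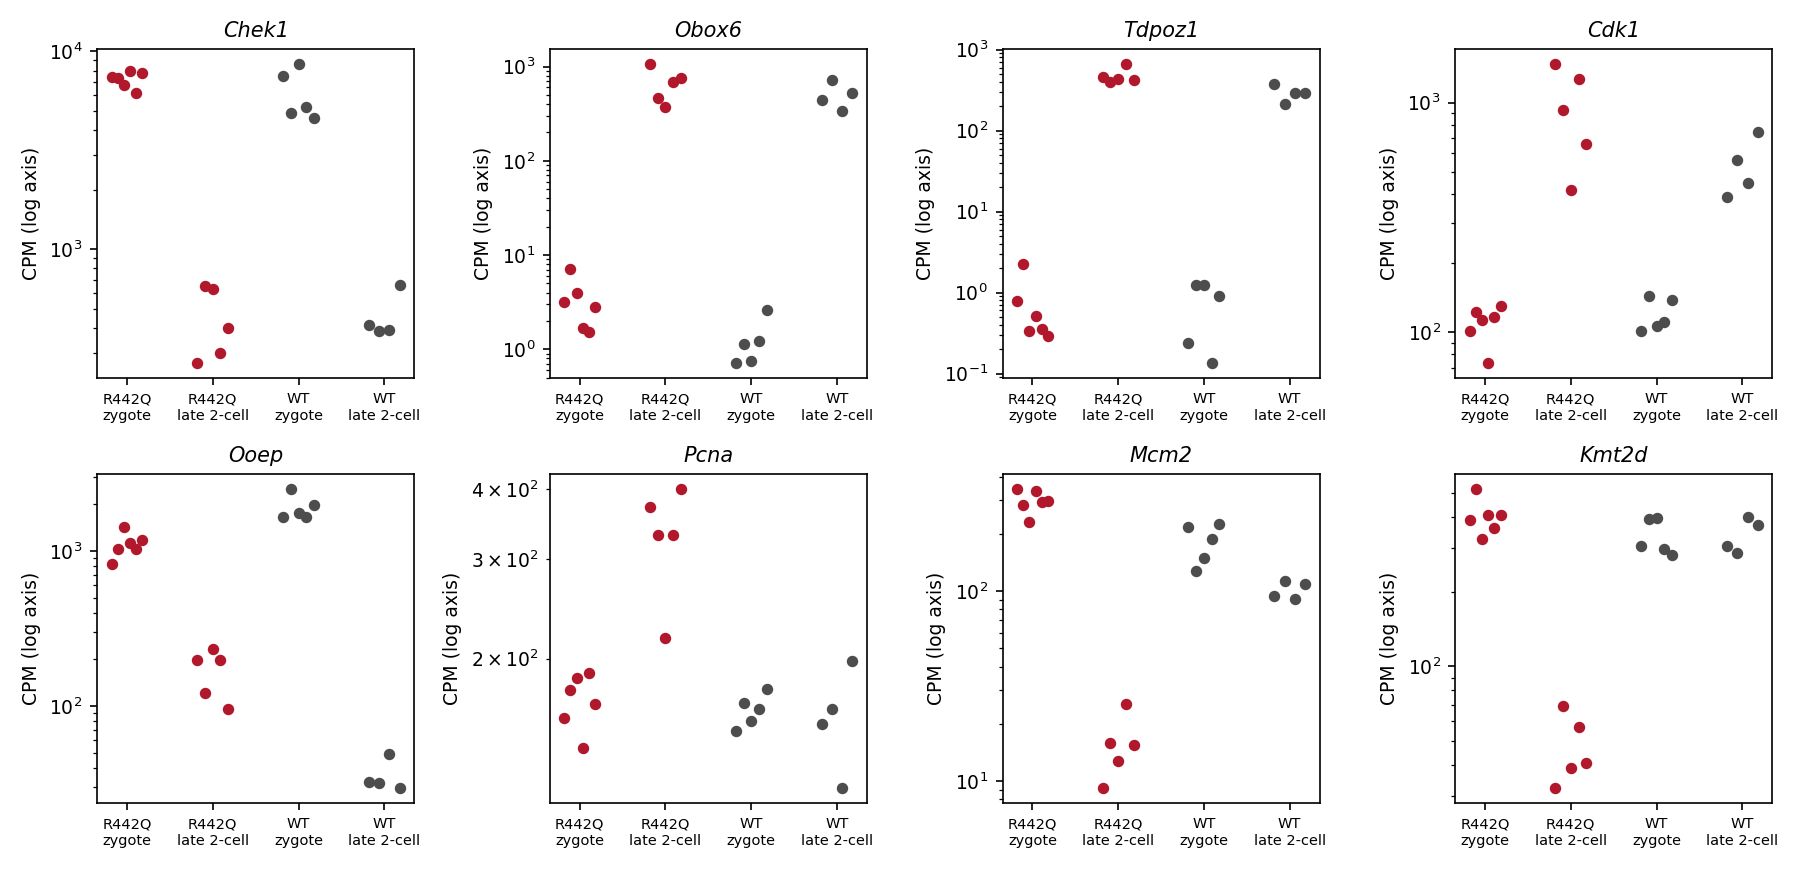
CPM of 8 genes in each embryo (log axis, 1 point per embryo) for R442Q (red) and WT (grey) zygotes and late 2-cell embryos. Chek1, Ooep, Mcm2 and Kmt2d were lower and Obox6, Tdpoz1, Cdk1 and Pcna higher in all 5 R442Q late 2-cell embryos than in all 6 R442Q zygotes, whereas Pcna and Kmt2d of WT embryos overlap between the stages.

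Replication genes and enzymes of the deoxynucleotide supply moved in both directions. Of 44 tested genes of this list, 20 rose (45.5%, background 35.3%), 16 fell (36.4%, background 29.8%) and 8 did not pass the threshold, with a median of 0.27, and with the length and GC trend removed 17 rose and 16 fell with a median of -0.0013. No listed MCM gene passed as a rise, since Mcm2, Mcm4, Mcm5, Mcm7 and Mcm10 fell and Mcm3 and Mcm6 did not pass, whereas Orc1, Orc2, Orc3, Orc4 and Orc6 of the origin recognition complex rose and Orc5 fell. These members were picked out after their values were seen. Mcm2 ranged from 232 to 344 CPM (median 295, n = 6) in zygotes and stood at 9.21, 15.8, 12.7, 25.4 and 15.4 CPM in late 2-cell embryos. The fall was -4.24 ± 0.25 (SE; edgeR adjusted p 2.4e-12), where WT embryos changed by -0.83, and the difference of -3.41 ± 0.33 (SE; edgeR adjusted p 1.2e-06) passed in all 12 other settings and with any 1 embryo left out. Pcna, the sliding clamp, ranged from 139 to 189 CPM (median 171, n = 6) and stood at 371, 332, 218, 331 and 400.3 CPM. It rose by 0.97 ± 0.17 (SE; edgeR adjusted p 3.8e-05), while WT embryos held 162 ± 10.7 CPM as zygotes (SD, n = 5) and 158 ± 33.2 CPM at the late 2-cell stage (SD, n = 4). With the length and GC trend removed the rise was 0.21, with an edgeR adjusted p of 0.41. Rrm2, the small subunit of ribonucleotide reductase, rose (0.96, adjusted p 4.7e-05), as did Rpa2 of the single-strand binding complex (3.12, adjusted p 4.9e-11).

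Ribosomal protein genes rose almost without exception. Of 79 tested genes of this list, 77 rose (97.5%, background 35.3%), 0 fell (0%, background 29.8%) and 2 did not pass the threshold, with a median of 3.77 against 0.22 over all genes, and Rpl17 and Rps15a were those that did not pass. All 77 that rose had late 2-cell embryos entirely above zygotes, as had 21.7% of all tested genes. The list held 0.209% to 0.267% of counts in R442Q zygotes and 3.23%, 2.26%, 1.36%, 3.17% and 3.18% in late 2-cell replicates 1 to 5, with replicate 3 the lowest. In WT embryos 77 rose and 1 fell, with a median of 2.98, and the list held 1.17% to 1.99% of late 2-cell counts. Rplp0, the stalk protein, ranged from 185 to 241 CPM (median 215, n = 6) and stood at 3370.1, 3251, 1256, 3287 and 3317 CPM. Replicate 3 lay far below the other 4, and the log2 change was 3.76 ± 0.22 (SE; edgeR adjusted p 1.4e-12). Rpl41 rose by 5.32 ± 0.26 (SE; edgeR adjusted p 2.0e-13) and Rpl3 by 4.02 ± 0.22 (SE; edgeR adjusted p 1.0e-12). Processed copies share between 17.6% and 44.7% of the stretches of the members examined (Rpl3, Rps2, Rplp0, Rpl41 and Rpl17), so reads of single genes may be split.

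The difference between genotypes passed for 10 of the 79 (12.7%, against 3.07% of all genes) as a larger rise in R442Q and for 0 as a smaller one (against 7.05%). This count was unstable. It was 17 with median-of-ratios size factors, 29 with DESeq2, 5 with the length and GC trend removed and 4 without R442Q late 2-cell replicates 1 and 4. It was 44 without R442Q late 2-cell replicate 3 (where the count over all genes rose from 497 to 1029), 19 without R442Q late 2-cell replicate 2, 18 without WT late 2-cell replicate 2 and 6 without WT late 2-cell replicate 3 or WT zygote replicate 4. Rpl41 passed in all 12 other settings and with any 1 embryo left out (1.24 ± 0.33 (SE; edgeR adjusted p 0.021)). The 250 bases before the start of Rps2, which rose by 2.56 ± 0.31 (SE; edgeR adjusted p 1.8e-07), are shown as one of these promoters (RefSeq, GRCm38.p6, searched motifs in capitals):
Rps2 (chr17:24719813-24720062, + strand): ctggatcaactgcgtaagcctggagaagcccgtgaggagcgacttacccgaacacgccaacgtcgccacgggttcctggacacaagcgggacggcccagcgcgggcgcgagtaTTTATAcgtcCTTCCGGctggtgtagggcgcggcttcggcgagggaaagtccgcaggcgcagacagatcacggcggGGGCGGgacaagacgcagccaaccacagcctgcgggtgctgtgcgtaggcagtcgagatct
It holds TATAAA and CCGGAAG, the ETS site of the GABPA kind, on the reverse strand 137 and 127 bases before the start, and GGGCGG 61 bases before it. CCGGAAG occurs in 15.5% of the windows of tested genes and in 8.86% of all windows. Windows were at hand for 58 of the 79 tested ribosomal protein genes, and 25 of their 68 windows (36.8%) hold CCGGAAG. Neither this set nor that of all tested genes is complete, so both shares describe the matched genes only. Over the lists the share ran from 0% in the 2-cell families to 46.7% in the proteasome list. It was 37.9% in the splicing list, so the ribosomal share is not particular to those genes.

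Genes of the nucleolar machinery that builds ribosomes mostly rose. Of 51 tested genes of this list, 37 rose (72.5%, background 35.3%), 3 fell (5.88%, background 29.8%) and 11 did not pass the threshold, with a median of 1.47 and, in WT embryos, 1.80. Nhp2, a core protein of box H/ACA particles, ranged from 12.1 to 19.3 CPM (median 16.8, n = 6) and stood at 497, 372, 178, 333 and 586 CPM. All late 2-cell embryos lay on one side of all zygotes, and the log2 change was 4.61 ± 0.27 (SE; edgeR adjusted p 2.2e-12). Nop56 rose (0.96, adjusted p 0.00051) with overlapping groups, Fbl, the methyltransferase fibrillarin, rose from a low level (3.07, adjusted p 5.1e-06), and Ncl, nucleolin, did not pass (-0.47, adjusted p 0.1). Pes1, a factor of large subunit maturation, ranged from 63.7 to 88.02 CPM (median 77.1, n = 6) and stood at 12.6, 10.9, 12.2, 4.92 and 16.9 CPM. It fell by -2.72 ± 0.33 (SE; edgeR adjusted p 2.1e-07), while WT embryos changed by 0.25, a difference of -2.97 ± 0.46 (SE; edgeR adjusted p 0.0004) that passed in all 12 other settings and with any 1 embryo left out. Over the list the difference passed as higher for 3 of 51 (5.88%, against 3.07% of all genes) and as lower for 11 (21.6%, against 7.05%). The 11 became 4 with the length and GC trend removed, 7 with median-of-ratios size factors and 6 to 11 with any 1 embryo left out.

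Translation factors rose more often than they fell. Of 47 tested genes of this list, 25 rose (53.2%, background 35.3%), 6 fell (12.8%, background 29.8%) and 16 did not pass the threshold, with a median of 0.74. Eif1a, a copy of the start-site scanning factor eIF1A used at the 2-cell stage, ranged from 0.157 to 3.15 CPM (median 0.731, n = 6) and stood at 69.99, 67.1, 60.7, 50.9 and 107 CPM. No late 2-cell embryo overlapped the zygotes, and the log2 change was 6.05 ± 0.52 (SE; edgeR adjusted p 7.7e-10). Its X-linked relative Eif1ax stood at 179, 169.5, 141, 114 and 198 CPM over a zygote range of 105 to 142 CPM (median 122, n = 6) and did not pass (0.39, adjusted p 0.17). In WT embryos it went from 125 ± 20.4 CPM as zygotes (SD, n = 5) to 38.3 ± 20.1 CPM at the late 2-cell stage (SD, n = 4), and the difference of 2.10 ± 0.38 (SE; edgeR adjusted p 0.0013) passed in all 12 other settings and with any 1 embryo left out. Eif3l, a subunit of the eIF3 complex, rose (3.53, adjusted p 3.0e-11), Eif4enif1, a carrier of eIF4E, fell (-3.25, adjusted p 3.7e-12), and Eif4e did not pass (0.53, adjusted p 0.051).

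Proteasome subunits rose in 19 of 34 cases (55.9%, background 35.3%) and fell in 8 (23.5%, background 29.8%), with a median of 0.83, and in WT embryos 10 rose and 9 fell, with a median of 0.24. Psmb1, a subunit of the catalytic core, ranged from 16.3 to 23.5 CPM (median 19.1, n = 6) and stood at 525, 259, 199.6, 436 and 524 CPM. The log2 change was 4.30 ± 0.25 (SE; edgeR adjusted p 1.5e-12), against 3.07 in WT embryos. Psmd14, the deubiquitinase of the regulatory particle, rose (3.63, adjusted p 1.5e-11) and Psma7 of the core fell (-2.19, adjusted p 4.5e-09). A larger rise or smaller fall than in WT embryos passed for 8 of 34 (23.5%, against 3.07% of all genes), among them Psma1, which lost its call with the length and GC trend removed (0.91, edgeR adjusted p 0.085), and Psmb1, which lost it without R442Q late 2-cell replicates 1 and 4 (1.10, edgeR adjusted p 0.055). A larger fall passed for Psmd3, a call that was lost with median-of-ratios size factors and in 17 of 20 fits with 1 embryo left out. The 8 became 5 without R442Q late 2-cell replicates 1 and 4, 5 without WT zygote replicate 1 or WT late 2-cell replicate 1, 3 with the length and GC trend removed, and 14 without R442Q late 2-cell replicate 3, where the count over all genes rose from 497 to 1029.

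Splicing and RNA polymerase II genes moved in both directions. Of 53 tested splicing genes 22 rose (41.5%) and 16 fell (30.2%), near the 35.3% and 29.8% of all genes, with a median of 0.26 that became -0.0802 without R442Q late 2-cell replicates 1 and 4. Snrpd2, a core Sm protein, rose (5.52, adjusted p 6.5e-13), as did the SR protein gene Srsf1 (1.98, adjusted p 5.9e-06), and the U2 particle genes Sf3b1 and Sf3b2 fell (-1.65, adjusted p 2.6e-07, and -2.23, adjusted p 1.2e-09). Of 46 tested genes of the polymerase and its general factors 21 rose (45.7%) and 10 fell (21.7%), with a median of 0.61. Polr2a, the largest subunit, ranged from 7.81 to 19.2 CPM (median 12.3, n = 6) and stood at 15.8, 39.02, 28.1, 5.09 and 20.9 CPM. Its groups overlapped and it did not pass (0.75, adjusted p 0.071), whereas WT embryos held 9.02 ± 2.19 CPM as zygotes (SD, n = 5) and 54.8 ± 10.3 CPM at the late 2-cell stage (SD, n = 4). The difference of -1.85 ± 0.54 (SE; edgeR adjusted p 0.032) lost its call in 5 of 12 other settings, among them the removal of the length and GC trend (-0.97, edgeR adjusted p 0.28) and of R442Q late 2-cell replicates 1 and 4 (edgeR adjusted p 0.059), and it passed in 9 of 20 fits with 1 embryo left out. Polr2h, a subunit shared by the polymerases, rose (4.30, adjusted p 1.2e-12), Gtf2b fell (-1.37, adjusted p 0.00027), Ssrp1 of the FACT chaperone fell (-3.13, adjusted p 4.1e-09) and Tbp did not pass (0.06, adjusted p 0.83).

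Chromatin regulators fell more often than they rose. Of 53 tested genes of this list, 17 rose (32.1%, background 35.3%), 26 fell (49.1%, background 29.8%) and 10 did not pass the threshold, with a median of -0.45. H2afz, the histone variant H2A.Z, ranged from 32.7 to 58.8 CPM (median 47.4, n = 6) and stood at 2413, 1842, 947, 2523 and 2366 CPM. There was no overlap between the stages, and the log2 change was 5.48 ± 0.25 (SE; edgeR adjusted p 1.1e-13). Tet3, the maternal 5-methylcytosine oxidase, went from 583 to 754 CPM (median 622, n = 6) to 68.9, 50.3, 70.4, 207 and 37.7 CPM. Replicate 4 was the highest late 2-cell embryo, still below all zygotes, and the log2 change was -2.89 ± 0.33 (SE; edgeR adjusted p 7.5e-08). Kdm5b, an eraser of H3K4 methylation, rose (2.77, adjusted p 2.2e-07), and Dppa3, which protects the maternal genome from demethylation, did not pass (-0.13, adjusted p 0.49). Kmt2d, an H3K4 methyltransferase, ranged from 325 to 519 CPM (median 398, n = 6) and stood at 32.4, 69.5, 38.9, 56.9 and 40.9 CPM. It fell by -3.07 ± 0.22 (SE; edgeR adjusted p 3.1e-11), while WT embryos held 335 ± 55.3 CPM as zygotes (SD, n = 5) and 342 ± 54.4 CPM at the late 2-cell stage (SD, n = 4). The difference was -3.10 ± 0.30 (SE; edgeR adjusted p 1.2e-06), and -1.59 with an edgeR adjusted p of 0.021 once the length and GC trend was removed.

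Of 29 chaperones and heat shock genes 17 rose (58.6%, background 35.3%) and 8 fell (27.6%, background 29.8%), with a median of 1.02. Hspa8, the constitutive HSP70, ranged from 49.6 to 127 CPM (median 65.9, n = 6) and stood at 1008, 658, 288, 539.95 and 1042 CPM, a log2 change of 3.18 ± 0.31 (SE; edgeR adjusted p 5.5e-09). Hspb1, a small heat shock protein, rose (5.22, adjusted p 3.4e-11), Hsp90aa1 fell (-0.96, adjusted p 0.0023), and the regulator Hsf1 fell (-1.37, adjusted p 7.9e-08). Hspa1b, the inducible HSP70, was at most 2.03 CPM in any R442Q zygote and 0.753 CPM in any R442Q late 2-cell embryo, and 62.3% of its stretches occur in other genes, chiefly Hspa1a. Of 37 genes of glycolysis and pyruvate use 15 rose (40.5%) and 10 fell (27%), near the 35.3% and 29.8% of all genes, with a median of 0.44. The genes of the lactate dehydrogenase subunits moved in opposite directions: Ldhb ranged from 1843 to 2834 CPM (median 2351, n = 6) and fell to 194, 168, 386, 213 and 194 CPM, and Ldha ranged from 4.78 to 8.55 CPM (median 6.96, n = 6) and rose to 38.4, 133, 104, 79.3 and 75.6 CPM. Their log2 changes were -3.36 ± 0.22 (SE; edgeR adjusted p 7.6e-12) and 3.67 ± 0.36 (SE; edgeR adjusted p 7.6e-09). Mdh2, the mitochondrial malate dehydrogenase, rose (4.77, adjusted p 6.9e-13). Pkm, pyruvate kinase, fell in R442Q embryos (-0.88, adjusted p 0.00072) and rose in WT embryos by 1.02. The difference was -1.90 ± 0.30 (SE; edgeR adjusted p 0.00049), and -0.87 with an edgeR adjusted p of 0.12 once the length and GC trend was removed.

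Genes of the later blastocyst lineages were mostly low. Of 20 tested genes of this list, 6 rose (30%, background 35.3%), 3 fell (15%, background 29.8%) and 11 did not pass the threshold, and Cdx2, Nanog, Elf5 and Sox21 were too low to test. Zfp42, a pluripotency marker, rose to 55.3, 37.7, 60.8, 30.03 and 33.4 CPM from 0.259 to 2.85 CPM (median 1.31, n = 6) (4.92, adjusted p 1.0e-07). Gata3, a trophectoderm factor, fell (-3.82, adjusted p 1.4e-08), and Gata4 and Gata6, factors of primitive endoderm, did not pass (0.04, adjusted p 0.94, and 0.54, adjusted p 0.68).

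**Figure D4:**
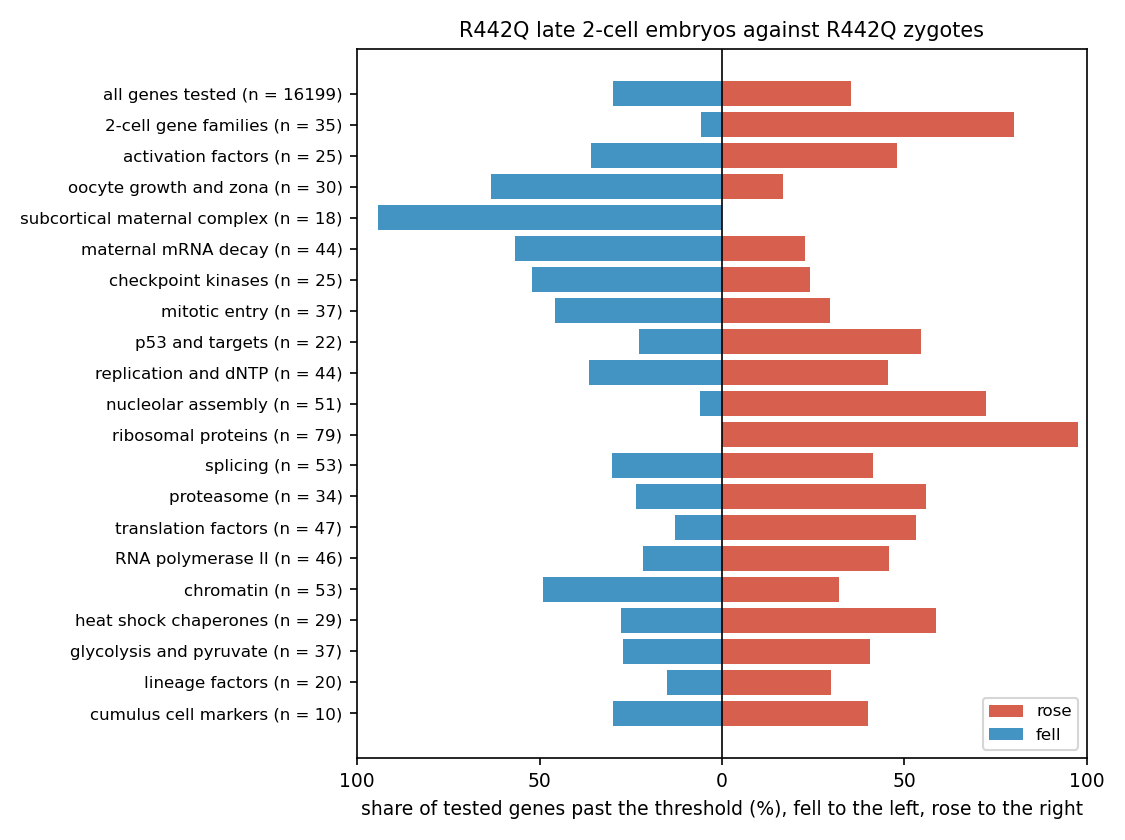
Share of tested genes (%) that rose (right) or fell (left) past an edgeR adjusted p of 0.05 between R442Q zygotes and R442Q late 2-cell embryos, for all genes tested and for each list, with the number tested. Ribosomal proteins (97.5% rose), 2-cell families (80% rose) and nucleolar genes (72.5% rose) lie to the right and the subcortical maternal complex (94.4% fell) to the left of all genes (35.3% rose, 29.8% fell).

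The R442Q change was then tested against the WT change in the same model. Of 16199 genes, 1639 (10.1%) changed differently. In 497 (3.07%) the R442Q change was the higher and in 1142 (7.05%) the lower. This split depended on the scaling and on length and GC content. It was 707 and 917 (4.36% and 5.66%) with median-of-ratios size factors and 962 and 897 (5.86% and 5.46%) with limma on log2(FPKM + 1). It was 1136 and 1310 with DESeq2, and 615 and 338 (3.83% and 2.1%) with the length and GC trend removed. In the same order of settings the median difference over all genes moved from -0.16 to -0.006, 0.08, -0.005 and 0.25. The 1142 genes had a median transcript length of 3728 bases and a median GC content of 51.1%, the 497 genes 2127 bases and 45.3%, and all tested genes 3027 bases and 48.9%. The 497 became 1029 without R442Q late 2-cell replicate 3 and 800 without replicate 5. The 1142 became 670 without WT zygote replicate 2, 740 without WT late 2-cell replicate 2, and 717 and 749 without R442Q zygote replicates 2 and 4. The part of library composition in these differences was not tested.

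In each of the other lists, 0 to 8 genes passed as differing from WT embryos in either direction. The shares ran from 0% to 17.2% as higher (background 3.07%) and from 0% to 20% as lower (background 7.05%). As higher they were largest for heat shock (17.2% of 29) and oocyte genes (16.7% of 30). As lower they were largest for lineage (20% of 20), mitotic entry (18.9% of 37) and heat shock genes (17.2% of 29). With the length and GC trend removed the oocyte count went from 5 to 2 and the mitotic entry count from 7 to 0. Several of these counts changed with the setting or with 1 embryo left out, as the checkpoint list shows, with 0 higher and 2 lower that became 2 and 0 once the length and GC trend was removed.

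The differences lay in genes that changed in both genotypes and in genes that passed in only one. Of 4679 genes that rose in both genotypes, 139 rose more and 263 less in R442Q embryos. Of 3315 that fell in both, 110 fell less and 218 more. A further 1428 genes fell in R442Q embryos without passing in WT embryos, and for 371 of them the difference itself passed. It passed for 117 of 1033 genes that rose in R442Q alone, for 207 of 1109 that rose in WT alone and for 121 of 725 that fell in WT alone. In all, 92 genes passed in opposite directions, 82 that fell in R442Q and rose in WT embryos and 10 the other way. The 82 had a median GC content of 53.4% and a median length of 3945 bases, and the difference passed for 24 of them with the length and GC trend removed and for 68 without R442Q late 2-cell replicates 1 and 4.

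Among those 82, Igf2bp3, an mRNA-binding protein, changed by -1.90 in R442Q and 0.99 in WT embryos, and Brd2, a bromodomain reader of acetylated histones, by -1.42 and 1.87. With the trend removed their differences were -2.30 and -2.003, with edgeR adjusted p of 0.00091 and 0.0012. Llgl2, a polarity protein, changed by -2.32 and 1.07. These genes were picked out after their values were seen.

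**Figure D5:**
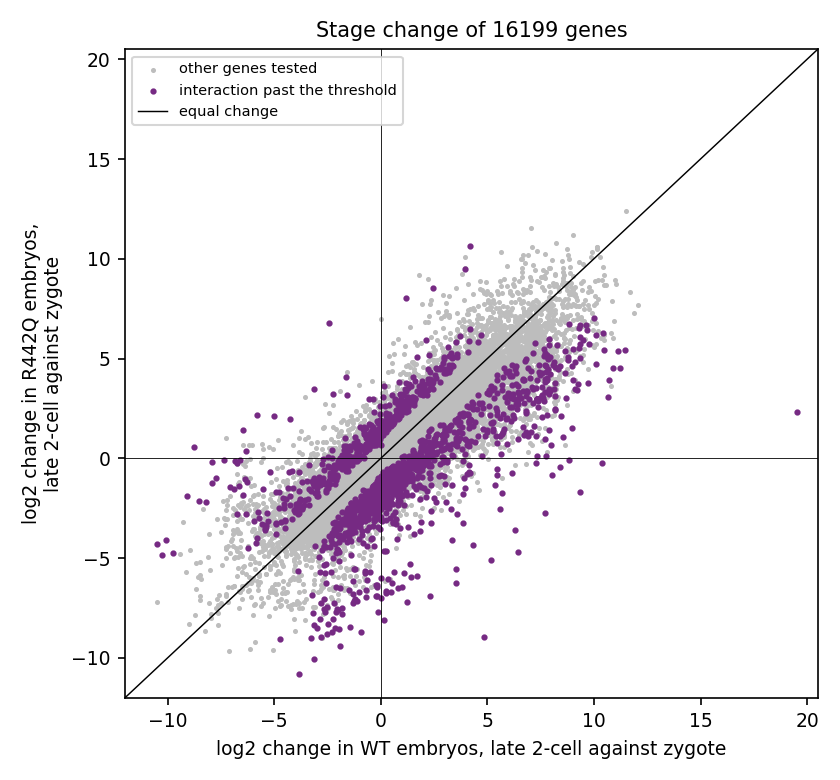
Log2 change from zygote to late 2-cell in R442Q embryos (vertical axis) against WT embryos (horizontal axis), 1 point for each of 16199 genes, with the 1639 genes past the interaction threshold in purple and the line of equal change. More purple points lie below the line (1142) than above it (497), and the point at the far right is AY036118.

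Among genes with a mean of at least 50 CPM in 1 of the 4 groups, the 4 largest differences below 0 were in genes at or near 0 in WT zygotes. AY036118, a long noncoding RNA gene that overlaps Gm42418 on the opposite strand and whose sequence also occurs in other annotated genes, had 0 counts in all WT zygotes. It ranged from 729 to 3135 CPM (median 1847, n = 6) in R442Q zygotes and stood at 11729, 11487, 4029, 11074 and 7806 CPM in R442Q late 2-cell embryos, a log2 change of 2.31 ± 0.33 (SE; edgeR adjusted p 5.6e-06). WT late 2-cell embryos held 12419.9 ± 3868 CPM (SD, n = 4), and no WT fold is given against 0. Gm6189, Zfp622 and Gm13102 were at or near 0 in WT zygotes, and the last 2 reached 3.96 and 3.75 CPM in the highest R442Q zygote. In the other direction and under the same limit, Gm4294, a processed copy of Rpl15, Slf1, a factor of DNA repair, and Tm2d1 were the largest beside Ooep. Slf1 stood at 29.1, 2.39, 7.38, 5.91 and 5.702 CPM and Tm2d1 at 8.15, 1.53, 8.25, 38.4 and 2.58 CPM in R442Q late 2-cell embryos. In each of them 1 embryo was far above the rest, replicate 1 for Slf1 and replicate 4 for Tm2d1, and their late 2-cell embryos overlapped the zygotes. The difference of Tm2d1 lost its call without R442Q late 2-cell replicates 1 and 4 (1.59, edgeR adjusted p 0.12) and with the length and GC trend removed (2.26, edgeR adjusted p 0.095).

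Among genes with a mean of at least 50 CPM in R442Q late 2-cell embryos and no overlap, the largest rises were in genes all but absent from R442Q zygotes. Gm16367 had 0 counts in all 6 zygotes and 189.9, 77.7, 88.2, 60.6 and 34.2 CPM in late 2-cell embryos, which was at least 237-fold higher than a floor of 3 counts per library. Gm9531 had 3 counts, Cypt3 and Stk17b 2 and Taf7l 1 in all zygotes together. The ratios of their mean levels were 3039, 2491, 1368 and 2464, with exact 95% counting intervals for the zygote counts of 1040 to 14735, 690 to 20572, 379 to 11293 and 442.3 to 97341. Stk17b, a serine/threonine kinase, stood at 36.5, 80.8, 29.2, 30.03 and 105 CPM and Taf7l, a paralog of a TFIID subunit on the X chromosome, at 18.8, 82.8, 85.7, 4.43 and 61.8 CPM. Gm12624 has counts identical to those of Gm12614, and Gm12627 and Gm9531 share over 95% of their stretches with other genes. Gm11517 rose by 10.10 ± 0.47 (SE; edgeR adjusted p 1.6e-13).

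The largest falls are given among genes with a mean of at least 50 CPM in R442Q zygotes and no overlap between the stages. Eps8l3, an actin regulator, ranged from 36.8 to 79.8 CPM (median 48.4, n = 6) and was at 0 in late 2-cell replicates 2 to 5, with a log2 change of -7.32 ± 0.80 (SE; edgeR adjusted p 3.6e-08). Its size rested on replicate 1, without which it was -11.67. Eef2k, the kinase of elongation factor 2, went from 440.3 to 643 CPM (median 509.6, n = 6) to 17.5, 4.601, 13.2, 5.09 and 11.8 CPM. Its fall of -5.66 ± 0.35 (SE; edgeR adjusted p 4.2e-12) exceeded that of WT embryos (-3.87) by -1.78 ± 0.42 (SE; edgeR adjusted p 0.0086), which with the trend removed was -0.96, adjusted p 0.24. Zfp109 fell (-6.30, adjusted p 5.4e-09), as did Nckap1l (-6.16, adjusted p 3.3e-07) and Gm15629 (-5.57, adjusted p 5.5e-08), the last antisense to Lcp1, so that without a stated strand its reads cannot be told from those of Lcp1. Lrch4 ranged from 139 to 181 CPM (median 150.5, n = 6) and stood at 0, 1.53, 2.03, 3.77 and 0.215 CPM, while WT late 2-cell embryos kept 61.3 ± 6.54 CPM (SD, n = 4). It shares 71.7% of its stretches with the overlapping Gm20605, so its own level is uncertain.

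The genes that rose by a log2 of at least 1 were shorter than those that fell, with a median transcript length of 2442.5 against 3424 bases, and the GC content was 49.2% and 48.9%. Pseudogenes made up 5.84% of the risen and 2.78% of the fallen genes. By chromosome, 276 of 594 tested genes of the X rose by that much (46.5%, against 33.5% of all genes) and 94 fell (15.8%, against 27.1%). In WT embryos 39.7% of the X-linked genes rose and 19.5% fell, within the ranges of the 19 autosomes there (24.8% to 41.7% and 16.8% to 28.9%). In R442Q embryos the autosomes ran from 26.2% to 39.6% risen and from 22.3% to 32.9% fallen. The sex of the embryos is not in the labels.

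Markers of other cells were mostly low. The list of cumulus cell markers held 21 genes, of which 10 were tested. Of these, 4 rose (40%, background 35.3%) and 3 fell (30%, background 29.8%), near the shares of all genes. Their summed level was 39.4 to 50.6 CPM in R442Q zygotes and 45.7 to 135 CPM in R442Q late 2-cell embryos, most of it Amhr2, Kitl and Tnfaip6 in the latter, while Inhba, Amh, Fshr, Lhcgr, Inha, Hsd3b1 and Lum were at 0 in all 5. Amhr2, a receptor gene, rose from 5 counts in all zygotes to 24.5, 32.03, 34.6, 12.5 and 37.01 CPM, and Cyp19a1, aromatase, fell (-3.98, adjusted p 0.00011). Has2 and Ptgs2, enzymes of the expanding cumulus, reached at most 2.85 CPM in zygotes and 10.01 CPM in late 2-cell embryos. Of 10 sperm markers 2 were tested. Ldhc rose (4.41, adjusted p 4.7e-09) and Prm2, a protamine, fell (-3.13, adjusted p 0.0037), and Tnp2, Smcp, Akap4, Odf1, Gapdhs and Spata18 were at 0 in all R442Q late 2-cell embryos. The part of other cells in the changes was not tested.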

How the data were processed

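Single embryos had been lysed without the zona, amplified with SMART-seq2, cut with Tn5 and sequenced on a HiSeq X-10, per the labels' protocols. The authors deposited tables of estimated counts per gene, not normalised, for each stage. The authors also deposited FPKM, scaled by them to length and library size. RSEM and mm10 are named in the submitters' processing notes, with no version or role. The use of strand is not given in the sources used here. The deposited counts were not all whole (90.7% of values in zygotes, 89.9% at the late 2-cell stage) and were rounded. Each library was grouped and numbered by its title. GENCODE M21 (GRCm38) gave positions and matched 98.6% of 49686 symbols.

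Tests used edgeR 4.0.16 in R 4.3.3 (quasi-likelihood, TMM, filterByExpr with a minimum count of 10) in 1 model of the 4 groups, 20 embryos in all, with Benjamini-Hochberg adjustment over 16199 genes and a threshold of 0.05. The interaction is the R442Q change minus the WT change. Each SE is the size of the log2 change divided by the square root of the quasi-likelihood F statistic. It is a derived value, not one that edgeR reports. Log2 CPM used 2 added counts and TMM-scaled libraries. Correlations between embryos instead used log2(CPM + 1) on library totals, over genes above a minimum mean CPM. A gene at 0 in a group was set against a floor of 3 counts per library, and counting intervals cover counting error only. Alternatives were median-of-ratios (RLE), total and upper quartile scaling, no filter, DESeq2 1.42.0, a robust fit, 1 genotype alone, limma 3.58.1 on the deposited FPKM with 1 or 0.1 added or a stricter filter, a replicate block, and each embryo left out. Removing 2 late 2-cell embryos, and removing each library's trend on transcript length and GC content, were chosen after seeing the data.

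The members, gene lists and tests were chosen with earlier results of these data known. The named genes were Chek1, the 8 largest rises and 8 largest falls with a mean of at least 50 CPM and no overlap, the first 3 tested genes of each list and its smallest p in each direction, and the 4 largest interactions in each direction with a mean of at least 50 CPM in a group. Exceptions are marked, and 1 gene that this rule names is not reported here.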

Additional observations from a re-analysis of the deposited data

Results flagged for a closer look

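Among 268 groups of R442Q embryos, 24 held 1 embryo that lay far from the others relative to the range of the group. The cutoff is set to mark about 1 in 20 groups by chance where values are normally distributed. Whether these values are was not tested, and many of the groups share embryos. Among R442Q zygotes these were Tdpoz1 at 2.25 CPM in replicate 2, Obox3 at 14.7 CPM in replicate 2, Bmp15 at 4170 CPM in replicate 6, Nobox at 159 CPM in replicate 2, Zbed3 at 17900 CPM in replicate 3, Sf3b1 at 512 CPM in replicate 6, Eif1a at 3.15 CPM in replicate 5, Eif4enif1 at 672 CPM in replicate 2 and Mdh2 at 38.3 CPM in replicate 2. Among R442Q late 2-cell embryos these were Eps8l3 at 1.77 CPM in replicate 1, Zfp109 at 2.15 CPM in replicate 5, Tdpoz1 at 660 CPM in replicate 4, Wee1 at 28.5 CPM in replicate 3, Ddb2 at 48.6 CPM in replicate 4, Rplp0 at 1260 CPM in replicate 3, Tet3 at 207 CPM in replicate 4, Ldhb at 386 CPM in replicate 3, Slf1 at 29.1 CPM in replicate 1 and Tm2d1 at 38.4 CPM in replicate 4. For whole lists, the median log2 CPM stood apart at 5.96 for mitotic entry genes in late 2-cell replicate 3, 5.91 for replication genes in late 2-cell replicate 3, 6.31 for proteasome genes in zygote replicate 3, 2.50 for lineage genes in late 2-cell replicate 1, -1.81 for cumulus marker genes in zygote replicate 5.

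In 37 of the named genes the R442Q change differed from the WT change past the edgeR threshold. Differences above 0 on the log2 scale were 1.06 for Nlrp5, 3.04 for Ooep, 1.01 for Pcna, 1.24 for Rpl41, 1.28 for Snrpd1, 1.43 for Psma1, 1.23 for Psmb1 and 2.10 for Eif1ax. Others above 0 were 1.21 for Eif3l, 1.74 for Gtf2b, 1.32 for Hsp90aa1, 1.63 for Hspb1, 6.62 for Ptgs2, 3.82 for Gm4294, 3.19 for Slf1 and 3.01 for Tm2d1. Differences below 0 on the log2 scale were -5.68 for Lrch4, -1.78 for Eef2k, -1.50 for Cnot3, -1.26 for Chek2, -1.51 for Ccne1, -1.55 for Mdm2 and -3.41 for Mcm2. Others below 0 were -2.97 for Pes1, -1.0025 for Sf3b2, -1.01 for Eif4enif1, -1.85 for Polr2a, -2.37 for Ssrp1, -1.86 for Kdm5b, -3.10 for Kmt2d and -0.99 for Hsf1. Others below 0 were -1.90 for Pkm, -2.05 for Gata4, -17.21 for AY036118, -6.79 for Gm6189, -6.68 for Zfp622 and -6.05 for Gm13102, and the last 4 of these depend on the prior count of the fit, since WT zygotes were at or near 0. In other settings the size shrank to -2.30 for Gm6189, -1.16 for Zfp622 and -0.50 for Gm13102. Their calls were lost in 3, 2 and 3 of 12 other settings. Of the 37, 13 passed in every setting tried and with any 1 embryo left out, 22 passed with the length and GC trend removed, 28 without R442Q late 2-cell replicates 1 and 4, and 25 with any 1 embryo left out. The 13 were Lrch4, Ooep, Mdm2, Mcm2, Pes1, Rpl41, Eif1ax, Gtf2b, Ssrp1, Kmt2d, Gm4294, Slf1 and AY036118. Without those replicates the edgeR adjusted p was 0.055 for Nlrp5, 0.055 for Psmb1, 0.059 for Polr2a, 0.062 for Kdm5b, 0.066 for Hsp90aa1, 0.078 for Gata4, 0.086 for Snrpd1, 0.11 for Chek2 and 0.12 for Tm2d1. The difference of Ptgs2, which was at most 10.01 CPM in R442Q late 2-cell embryos, passed in 8 of 20 fits with 1 embryo left out and ran from 5.81 to 9.93 there. With the trend removed the call was lost for Eef2k, Cnot3, Chek2, Ccne1, Pcna, Snrpd1, Sf3b2, Psma1, Eif4enif1, Polr2a, Kdm5b, Hsf1, Pkm, Gata4 and Tm2d1.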

How the results depend on the processing

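The counts of genes that rose or fell in R442Q embryos stayed within 1.5 times of 5722 and 4825 under every setting tried, and between 5374 and 5841 and between 4609 and 4998 with any 1 embryo left out. The Chek1 change ran from -4.136 to -3.759. Depth limits the low genes, for which a few counts in all zygotes set the size of a rise.

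The number of genes with a higher R442Q change was 1136 with DESeq2, 962, 798 and 1019 with limma on FPKM (1 added, 0.1 added, stricter filter) and 273 with the replicate block, and 368 to 1029 with any 1 embryo left out. The number with a lower change was 753 with 0.1 added to FPKM and 338 with the length and GC trend removed, and 670 to 1282 with any 1 embryo left out. R442Q zygotes and late 2-cell embryos with the same number in their titles deviated together with r from -0.023 to 0.084. Of these 5 pairs, 2 matched best with their own number. The sample descriptions number some late 2-cell embryos otherwise than the titles, so these values cannot tell whether embryos were paired. With the replicate block 5050 genes rose, 4805 fell and the differences numbered 273 and 812.

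With 0.1 added to FPKM the list median was 4.55 for 2-cell families, 1.11 for activation factors, -2.09 for oocyte genes, 1.70 for p53 targets, 0.57 for replication, -0.22 for chromatin, 0.23 for mitotic entry and 1.99 for cumulus markers. With 1 added it was -0.64 for maternal decay, -0.65 for checkpoint kinases, 0.23 for mitotic entry, 1.39 for p53 targets, 0.56 for replication, -0.16 for chromatin and 1.25 for cumulus markers. With the stricter filter it was 1.33, -0.66, 0.24, 1.89, 0.57, -0.20 and 3.08 for activation, checkpoint, mitotic entry, p53, replication, chromatin and cumulus genes. With library totals it was -0.61 for decay, -0.69 for checkpoint, -0.26 for mitotic entry, 0.47 for replication and -0.28 for chromatin, and the decay median was -0.68 with median-of-ratios factors and with DESeq2. The cumulus median was 2.47 with R442Q embryos alone. Without R442Q late 2-cell replicates 1 and 4 it was -2.10 for oocyte genes, -2.89 for the subcortical complex, -0.95 for decay, -0.73 for checkpoint, -0.0802 for splicing and 0.39 for translation. With the length and GC trend removed it was -1.94, -2.92, -0.64, -0.31, -0.28, 1.86, -0.0013, 3.08 and -0.30 for oocyte, subcortical, decay, checkpoint, mitotic entry, p53, replication, ribosomal and chromatin genes. With any 1 embryo left out the medians ran from 3.17 to 4.42 for 2-cell families, 0.56 to 1.12 for activation, -1.93 to -1.43 for oocyte genes, -0.97 to -0.79 for decay, -0.96 to -0.68 for checkpoint, 2.02 to 2.52 for p53, 1.33 to 1.82 for nucleolar genes and -0.62 to -0.39 for chromatin. Of WT-called genes tested in R442Q embryos, 87.0% (higher) and 81.8% (lower) were recovered at a log2 change of at least 2. Of all WT-called genes of that size, tested or not, the shares were 75.1% and 78.5%. WT-higher genes held 6.21% of summed FPKM in R442Q zygotes and 49.2% in late 2-cell embryos. The causes were not tested.

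Of 116 named genes besides Chek1, 12 changed sign in R442Q under some setting, and 3725 of 3812 values kept direction and call. Zp3 was -0.029 and Ncl 0.14 with the trend removed. Atr was -0.54 with 0.1 added to FPKM, -0.37 with the replicate block and as low as -0.55 with 1 embryo left out (highest 0.57). Rpl17 was 0.13 with median-of-ratios factors and DESeq2, 0.16 with totals, 0.055 alone and 0.12 on FPKM. Snrpd1 was -0.27 without the 2 embryos and -0.97 with the trend removed, Eif4e -0.007 and Tbp -0.23 without the 2 embryos, and Tbp -0.0128 with upper quartile factors. Dppa3 was 0.0448 with totals and 0.0661 on FPKM. Gata6 was -0.21 and Gata4 -0.0805 with the block, and Gata4 -0.0427 with upper quartile factors and -0.0761 without the 2 embryos. The differences of Sf3b2 and Hsf1 were 0.0794 and 0.0271 with the trend removed. With 1 embryo left out the ranges were -0.25 to 0.0657 for Dppa3, -0.22 to 0.34 for Gata4, -0.16 to 0.25 for Rpl17, -0.0127 to 0.52 for Snrpd1, -0.13 to 0.32 for Tbp, -1.52 to 0.0161 for Tm2d1 and -0.27 to 0.63 for Wee1.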
